A study of Mus musculus with 10 samples.

Results

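The 6 genes of bone matrix and mineralization, Spp1, Dmp1, Mgp, Postn, Sparc and Enpp2, were followed across 5 hairpin lines of a mouse mammary carcinoma clone. They are 6 of the 23479 gene entries of the deposited table. They were chosen by strong changes seen in these same libraries, namely low Spp1, Dmp1 and Mgp and high Postn with Slpi lowered. Their differences between the Slpi hairpins and the control hairpin are therefore given as descriptions without a test. The same holds for their differences between shSlpi-1 and shSlpi-2, which rest on the same Slpi libraries. Their tests of Serpine2 hairpins against shRenilla share both shRenilla libraries with the comparison that chose them. Those p-values are therefore not independent of the choice, and whether Serpine2 values also entered it is not known. All libraries are total RNA of clone 4T1-T, a population grown from 1 cell of the metastatic mouse mammary carcinoma line 4T1 and kept in serum-containing culture. The groups carry shSlpi-1, shSlpi-2, shSerpine2-1, shSerpine2-2 or the control hairpin shRenilla, which targets Renilla luciferase. Each group has 2 libraries, A and B, and the labels do not say whether separate cultures gave them. P-values therefore measure only the spread between libraries, which may be technical. Slpi and Serpine2 encode secreted inhibitors of serine proteases, and the series concerns vascular mimicry and metastasis. A single clone with 1 group per hairpin limits what these groups stand for, and no bone cell or stroma was part of the culture.

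Bone matrix is a collagen scaffold in which acidic secreted phosphoproteins, matricellular proteins and Gla proteins control where and how fast calcium phosphate crystals form. Osteopontin (Spp1) and dentin matrix protein 1 (Dmp1) belong to the SIBLING family, small integrin-binding glycoproteins encoded by a gene cluster. Matrix Gla protein (Mgp) inhibits calcification of soft tissue after vitamin K dependent carboxylation, Sparc (osteonectin) and Postn (periostin) bind collagen and shape the matrix, and Enpp2 (autotaxin) is a secreted enzyme that makes the signalling lipid lysophosphatidic acid. Breast carcinoma cells are known to express several of these genes, osteopontin above all.

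The promoters of Spp1, Dmp1 and Postn are shown because Spp1 and Dmp1 were the members most alike across libraries and Postn the one that went the other way. The table of RefSeq promoters on GRCm38.p6 matched 4 of the 6 members, Spp1, Dmp1, Postn and Sparc. Each sequence is the 250 bases before the RefSeq start nearest to the gene's 5′ end in GENCODE M21, 5′ to 3′, with capitals for matches on either strand to a RUNX motif (TGTGGT, which the other strand shows as ACCACA), an AP-1 motif (TGANTCA) or a TATA box (TATAAA).
Spp1 (chr5:104434861-104435110, plus strand): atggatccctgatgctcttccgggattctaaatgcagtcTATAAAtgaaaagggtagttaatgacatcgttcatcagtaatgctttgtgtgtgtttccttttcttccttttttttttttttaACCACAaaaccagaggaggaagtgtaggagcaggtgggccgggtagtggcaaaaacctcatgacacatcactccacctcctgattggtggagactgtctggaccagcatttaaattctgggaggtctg
Dmp1 (chr5:104202367-104202616, plus strand): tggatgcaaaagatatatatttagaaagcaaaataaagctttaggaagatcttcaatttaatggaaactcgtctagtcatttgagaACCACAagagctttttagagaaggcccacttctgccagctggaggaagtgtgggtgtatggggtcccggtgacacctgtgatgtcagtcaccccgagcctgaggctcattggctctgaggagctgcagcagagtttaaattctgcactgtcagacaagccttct
Postn (chr3:54360857-54361106, plus strand): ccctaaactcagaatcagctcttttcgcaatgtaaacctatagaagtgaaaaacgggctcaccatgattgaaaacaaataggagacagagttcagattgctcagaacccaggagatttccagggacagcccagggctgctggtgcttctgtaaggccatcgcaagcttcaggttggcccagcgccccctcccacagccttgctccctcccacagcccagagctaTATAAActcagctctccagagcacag
The RUNX motif begins 128 bases before the start of Spp1 and 164 bases before that of Dmp1, on the minus strand of each window, and 14.0% of 32851 promoter windows of the same length hold it. TATAAA lies 26 bases before the start of Postn and 211 bases before that of Spp1, and 12.4% of windows hold it. The AP-1 letters, present in 6.75% of windows, were found in none of the 4 matched members. The Sparc window held none of the 3 motifs, and its RefSeq start lies 3103 bases from the gene's 5′ end in GENCODE M21. The motifs do not overlap one another in these windows.

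Values are normalized read counts, that is reads divided by the authors' size factor, and depth was 15877431 to 24026620 reads per library. The targeted genes were lowest under the hairpins named for them: Slpi averaged 146 ± 1.09 with shSlpi-1 and 68.3 ± 10.5 with shSlpi-2, against 1251 ± 87.6 with shRenilla (SD, n = 2), and Serpine2 averaged 134 ± 7.94 with shSerpine2-1 and 501 ± 17.5 with shSerpine2-2, against 3201 ± 79.1 with shRenilla. Both Slpi hairpins and shSerpine2-1 also went with lower levels of the other target. Slpi averaged 370 ± 62.3 with shSerpine2-1 and 1164 ± 75.6 with shSerpine2-2, whose libraries overlapped those of shRenilla in Slpi. Serpine2 averaged 1336 ± 7.76 with shSlpi-1 and 1642 ± 126 with shSlpi-2. The Slpi lines are thus low in both transcripts, and so is the shSerpine2-1 line, and the share of each target in a difference cannot be told apart there. The epithelial markers Krt8, Krt18, Epcam, Cdh1, Krt7 and Krt14 were present in every library, with sums of 26944 to 27407 in shSlpi-1, 31016 to 31095 in shSlpi-2, 25193 to 25592 in shSerpine2-1, 26485 to 26702 in shSerpine2-2 and 21140 to 21757 in shRenilla. Of 5 osteoblast markers 1 reached a mean of 10, the phosphatase gene Alpl, and Sp7, the defining osteoblast factor, stayed between 0 and 1.04 in the 10 libraries. In such bulk RNA, fewer cells of a type and less RNA per cell cannot be told apart. The shSlpi-2 libraries stood apart: their chi-square against each other, divided by its degrees of freedom, was 10.9 (1.55 to 2.76 within the other groups), ribosomal precursor Rn45s took 6.88% and 6.91% of their reads (1.00% and 1.21% in shRenilla), and 19938 and 20253 entries had a read in them, against 15887 and 16040 in shRenilla.

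**Figure D1:**
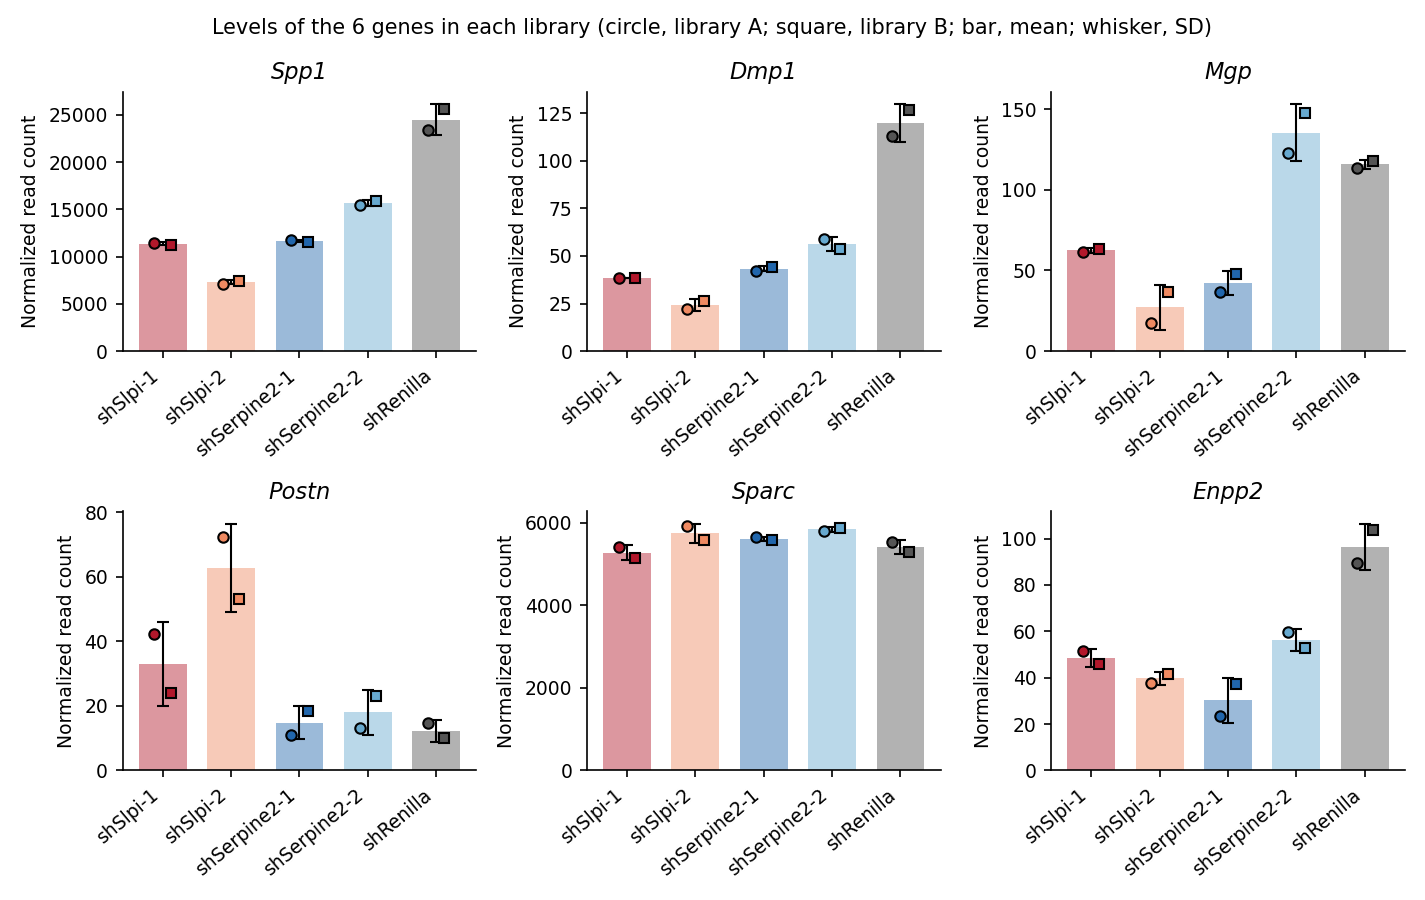
Normalized read count of the 6 genes in the 10 libraries by hairpin group, with circles for library A, squares for library B, bars for group means and whiskers for the SD over 2 libraries. Spp1, Dmp1 and Enpp2 are lower in every hairpin line than in shRenilla, Mgp is lower in 3 of the 4 lines, Postn is highest in the Slpi lines, and Sparc lies between 5153 and 5915 in all libraries.

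Spp1 was by far the most expressed of the 6 genes. It lies on chromosome 5, plus strand, positions 104435118 to 104441050 (GRCm38), and encodes osteopontin, an integrin and CD44 ligand. Its counts were 11468 and 11261 with shSlpi-1, 7154 and 7443 with shSlpi-2, 11751 and 11583 with shSerpine2-1 and 15464 and 15891 with shSerpine2-2, against 23343 and 25627 with shRenilla. Both shRenilla libraries were above all others and both shSlpi-2 libraries below all others, and no pair of neighbouring groups overlapped, although shSerpine2-1 and shSlpi-1 came within 115 counts of each other. Per kilobase of merged exons its shRenilla level was 14857, which ranked 15 among the 11563 tested genes with a length, while Sparc ranked 449, Mgp 6096, Dmp1 8187, Enpp2 9846 and Postn 11484.

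Group means of Spp1 were 2.15-fold (shSlpi-1), 3.35-fold (shSlpi-2), 2.10-fold (shSerpine2-1) and 1.56-fold (shSerpine2-2) lower than in shRenilla. With Serpine2 lowered it fell by 0.85 on the log2 scale over both hairpins (SE 0.04, limma adjusted p = 4.11e-09). That p-value rests on the same shRenilla libraries as the choice of the genes. The Slpi hairpins gave a difference of -1.43 (SE 0.04). Hairpins against the same target also differed. In the Slpi pair, given as description, shSlpi-1 stood 0.64 above shSlpi-2 (SE 0.05). The shSerpine2-1 line stood 0.43 below shSerpine2-2 (difference -0.43, SE 0.05, limma adjusted p = 5.69e-05). As a share of all reads in a library, Spp1 ran from 0.0367% to 0.139%.

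Dmp1, an acidic phosphoprotein of bone and dentin that nucleates mineral, followed the same order of groups at a far lower level. It had 38.3 and 38.5 counts with shSlpi-1, 22.2 and 26.5 with shSlpi-2, 42.3 and 44.1 with shSerpine2-1 and 58.8 and 53.6 with shSerpine2-2, against 113 and 127 with shRenilla. No neighbouring groups overlapped, and the shSlpi-2 libraries were again lowest. Its mean was 3.12-fold (shSlpi-1), 4.91-fold (shSlpi-2), 2.77-fold (shSerpine2-1) and 2.13-fold (shSerpine2-2) lower than in shRenilla.

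Over both Serpine2 hairpins Dmp1 fell by 1.26 (SE 0.17, limma adjusted p = 0.000131), and the Slpi hairpins gave a difference of -1.93 (SE 0.17). The difference between shSlpi-1 and shSlpi-2 was 0.64 (SE 0.20). It was 0.64 without library A or library B of shSlpi-1, and 0.52 without library A of shSlpi-2. Between shSerpine2-1 and shSerpine2-2 it was -0.37 (95% interval -0.80 to 0.05, limma adjusted p = 0.232).

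Spp1 and Dmp1 are near each other, in a cluster that holds all 5 SIBLING genes on the plus strand of chromosome 5. The dentin gene Dspp runs from 104170712 to 104180127, Dmp1 from 104202613 to 104214102, Ibsp (bone sialoprotein) from 104299171 to 104311469 and Mepe, a phosphoglycoprotein gene of osteocytes, from 104325329 to 104338611. The other 3 SIBLING genes were below the mean of 10 counts needed for a test. Ibsp had 1.01 and 4.16 counts with shSlpi-1, 5.80 and 0.947 with shSlpi-2, 5.57 and 4.64 with shSerpine2-1 and 6.15 and 6.13 with shSerpine2-2, against 11.6 and 8.81 with shRenilla, which rests on 1 to 11 reads per library. Both shRenilla libraries were the highest, and the other groups overlapped one another in part. Mepe averaged at most 1.56 counts in any hairpin group and Dspp at most 2.87, and both were at 0 with shRenilla.

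Within 500 kb of Spp1, 7 genes entered the tests, taken by position alone. Apart from Spp1 and Dmp1 these were Hsd17b11, Nudt9, Pkd2, BC005561 and Zfp951. Pkd2, an ion channel gene that starts just downstream of Spp1 at 104459450, averaged 2625 ± 62.3 with shSlpi-1, 1795 ± 152 with shSlpi-2, 2432 ± 62.4 with shSerpine2-1 and 2704 ± 35.0 with shSerpine2-2, against 2573 ± 35.8 with shRenilla (SD, n = 2). It was thus lower in the shSlpi-2 libraries, with a difference over both Slpi hairpins of -0.25 (SE 0.05, limma adjusted p = 0.00123) that became 0.03 (limma adjusted p = 0.677) without those libraries, and it differed by -0.00 with Serpine2 lowered (SE 0.05, limma adjusted p = 0.96). BC005561 fell by 0.28 with Serpine2 lowered (SE 0.06, limma adjusted p = 0.00224), mostly in shSerpine2-2: it averaged 1106 ± 38.0 with shSerpine2-1 and 874 ± 28.9 with shSerpine2-2, against 1194 ± 5.84 with shRenilla (SD, n = 2), and the hairpins differed by 0.34 (SE 0.06, limma adjusted p = 0.00276). With Slpi lowered it fell by 0.23 (SE 0.06, limma adjusted p = 0.00486), a call that ended without the shSlpi-2 libraries (-0.07, limma adjusted p = 0.362) or shRenilla library B (-0.22, limma adjusted p = 0.0544). Nudt9 and Hsd17b11, upstream of the cluster, did not pass the test against shRenilla over both hairpins of either target. Both were lower with shSerpine2-1 than with shSerpine2-2 (Nudt9 -0.38, limma adjusted p = 0.0161, Hsd17b11 -0.33, limma adjusted p = 0.0281). Zfp951 stood at -0.49 with Slpi lowered (limma adjusted p = 0.0994) and -0.54 with Serpine2 lowered (limma adjusted p = 0.096).

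**Figure D2:**
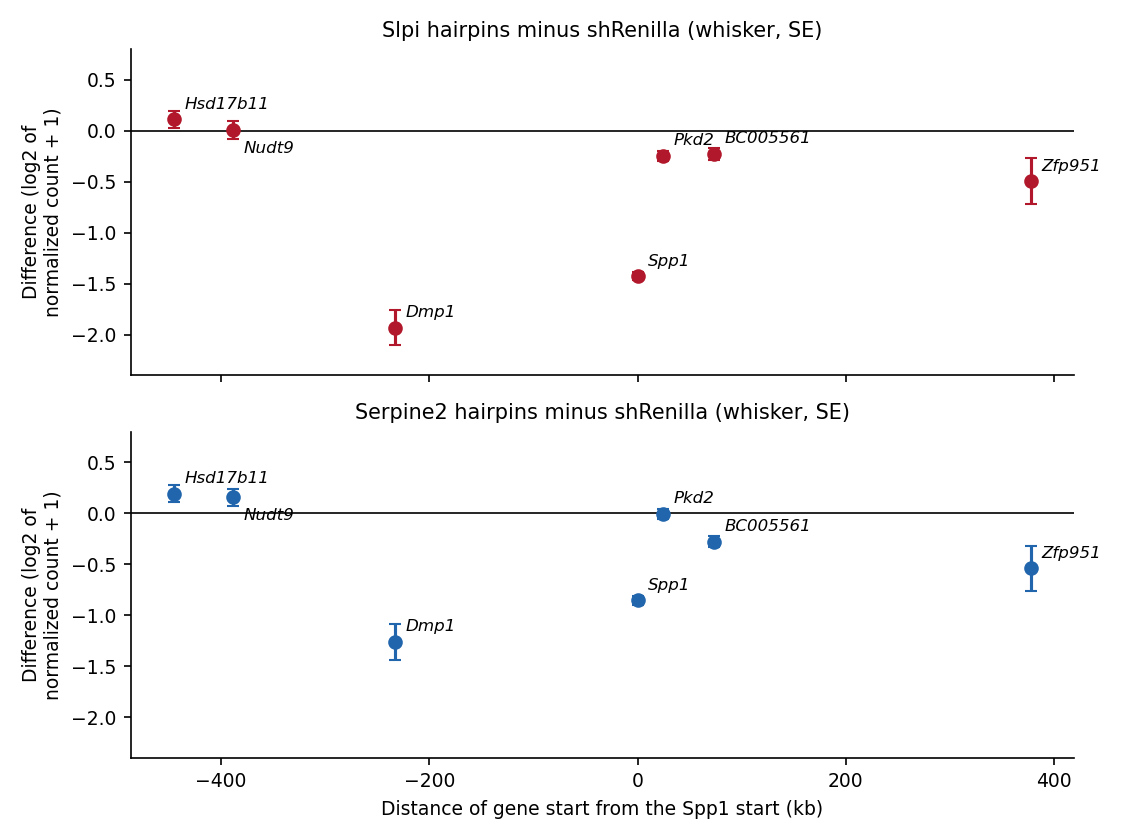
Differences from shRenilla in log2(normalized count + 1), as the mean of both hairpins, for the 7 tested genes within 500 kb of Spp1, plotted by distance of the gene start from the Spp1 start in kilobases (upper panel Slpi, lower panel Serpine2; whiskers, SE). Dmp1 (-1.93 and -1.26) and Spp1 (-1.43 and -0.85) stand lowest in both panels, and the other 5 genes lie between -0.54 and 0.19.

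Mgp separated the Serpine2 hairpins. The gene occupies chromosome 6, minus strand, positions 136872435 to 136875823. It had 61.5 and 63.5 counts with shSlpi-1, 17.4 and 36.9 with shSlpi-2, 36.8 and 47.6 with shSerpine2-1 and 123 and 148 with shSerpine2-2, against 114 and 118 with shRenilla. Counts were thus lowest in the shSlpi-2 and shSerpine2-1 libraries, which overlapped, and shSerpine2-2 was not lower than shRenilla. The difference between shSerpine2-1 and shSerpine2-2 was -1.66 (SE 0.26, limma adjusted p = 0.000737). That between shSlpi-1 and shSlpi-2, given as description, was 1.26 (SE 0.26).

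Against shRenilla, Mgp fell with shSerpine2-1 (-1.45, SE 0.26, limma adjusted p = 0.00206) and did not pass with shSerpine2-2 (0.22, 95% interval -0.34 to 0.77, limma adjusted p = 0.57). The mean of both Serpine2 hairpins, -0.62 (SE 0.23), did not pass (limma adjusted p = 0.0636), and it was called without the shSlpi-2 libraries in the fit (limma adjusted p = 0.00251). The Slpi hairpins gave -0.88 (shSlpi-1) and -2.14 (shSlpi-2), both with SE 0.26.

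Enpp2 was the member with its lowest level in a Serpine2 line. The autotaxin gene occupies chromosome 15, minus strand, positions 54838901 to 54952892. It had 51.4 and 45.8 counts with shSlpi-1, 37.7 and 41.7 with shSlpi-2, 23.4 and 37.2 with shSerpine2-1 and 59.7 and 52.8 with shSerpine2-2, against 89.6 and 104 with shRenilla. Both shRenilla libraries were above all others, and the gaps among the hairpin lines were small, with 0.546 counts between shSlpi-2 and shSerpine2-1 and 1.43 between shSerpine2-2 and shSlpi-1. It fell by 1.22 over both Serpine2 hairpins (SE 0.20, limma adjusted p = 0.000506), and the Slpi hairpins gave -1.12 (SE 0.20).

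Between the Serpine2 hairpins Enpp2 differed by -0.91 (SE 0.23, limma adjusted p = 0.015). That call was lost without shSerpine2-1 library A (-0.58, limma adjusted p = 0.189), shSerpine2-2 library A (-0.82, limma adjusted p = 0.116) or shSerpine2-2 library B (-0.99, limma adjusted p = 0.0775). The Slpi hairpins differed by 0.29 (SE 0.23). The call of shSerpine2-2 against shRenilla (-0.77, SE 0.23, limma adjusted p = 0.0203) ended when any of the 4 libraries compared was left out, with limma adjusted p-values of 0.0559 and 0.154 without shRenilla library A and B and 0.0632 and 0.138 without shSerpine2-2 library A and B.

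Postn was the member with more counts in the Slpi lines. Periostin, a fasciclin-domain protein secreted mainly by fibroblasts and osteoblasts, is encoded on chromosome 3, plus strand, positions 54361109 to 54391037. It had 42.3 and 23.9 counts with shSlpi-1, 72.5 and 53.0 with shSlpi-2, 11.1 and 18.6 with shSerpine2-1 and 13.2 and 23.0 with shSerpine2-2, against 14.7 and 9.92 with shRenilla. These rest on 42, 23, 75 and 56 reads in the Slpi lines, 10, 16, 15 and 30 reads in the Serpine2 lines and 14 and 9 reads in shRenilla. The 4 Slpi libraries were the 4 highest, by 0.958 counts over the next library, and the Serpine2 lines overlapped shRenilla.

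Postn means were 2.69 times (shSlpi-1) and 5.09 times (shSlpi-2) the shRenilla mean, and the Slpi hairpins gave a log2 difference of 1.80 (SE 0.32). With Serpine2 lowered the difference was 0.36 (95% interval -0.32 to 1.04, limma adjusted p = 0.458). The difference between shSlpi-1 and shSlpi-2 was -0.94 (SE 0.37), and it was -1.16 without shSlpi-2 library B. The spread within a group was wide, with SDs of 13.0 counts in shSlpi-1 and 13.8 in shSlpi-2.

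Reads in weakly expressed genes were also more frequent in the Slpi lines and in shSerpine2-1 than in shRenilla. Entries with at least 1 read numbered 18366 and 17895 in shSlpi-1, 19938 and 20253 in shSlpi-2, 17841 and 17701 in shSerpine2-1 and 15389 and 15630 in shSerpine2-2, against 15887 and 16040 in shRenilla. The 46 genes of the lists described below that had reads but a mean under 10 summed to 117 to 119 counts in shSlpi-1, 211 to 225 in shSlpi-2, 99.8 to 102 in shSerpine2-1 and 39.8 to 54.4 in shSerpine2-2, against 66.4 to 74.9 in shRenilla. The 5 endothelial markers, none with a mean of 10, summed to 21.2 to 23.9, 39.6 to 72.9, 34.5 to 37.2 and 6.15 to 13.8 counts in the hairpin groups in that order, against 13.7 to 18.7 in shRenilla. Of 6 fibroblast markers only Pdgfra had a mean of 10. The sum of the 6 was 595 to 654, 462 to 599, 627 to 648 and 773 to 773 in the hairpin groups in that order. In shRenilla that sum was 887 to 904. With shSlpi-2 and shRenilla in that order, Pdgfra averaged 500 and 884 counts and Dcn 0.473 and 3.83. The collagen genes Col1a1 (17.7 and 5.36) and Col1a2 (7.18 and 2.18), Thy1 (4.32 and 0) and Lum (0.957 and 0) went the other way. The part of such reads in the Postn values was not tested.

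**Figure D3:**
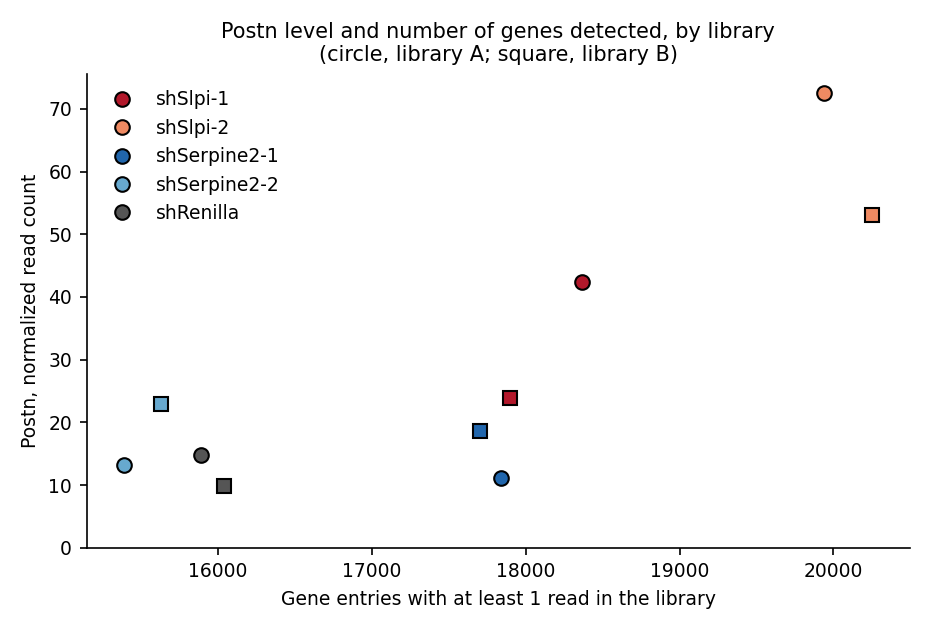
Postn normalized read count of each library against the number of gene entries with at least 1 read in it, coloured by hairpin group (circle, library A; square, library B). The shSlpi-2 libraries, with 19938 and 20253 entries, have 72.5 and 53.0 Postn counts, and the shRenilla libraries, with 15887 and 16040, have 14.7 and 9.92. The shSlpi-1 libraries, with 18366 and 17895 entries, have 42.3 and 23.9. Those of shSerpine2-1, with 17841 and 17701, have 11.1 and 18.6, and those of shSerpine2-2, with 15389 and 15630, have 13.2 and 23.0.

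Sparc was abundant and nearly even. Osteonectin, a collagen and calcium binding protein, is encoded on chromosome 11, minus strand, positions 55394500 to 55423183. Its counts were 5409 and 5153 with shSlpi-1, 5915 and 5583 with shSlpi-2, 5649 and 5584 with shSerpine2-1 and 5802 and 5880 with shSerpine2-2, against 5527 and 5291 with shRenilla. The highest library had 1.15 times the counts of the lowest. The shSlpi-1 line overlapped shRenilla, while shSlpi-2 and both Serpine2 lines were above it. Over both Serpine2 hairpins the difference was 0.08 (95% interval -0.01 to 0.17, limma adjusted p = 0.174), and for the Slpi hairpins it was 0.03 (SE 0.04). With shSerpine2-2 alone it was 0.11 (SE 0.05, limma adjusted p = 0.0991), which was called without the shSlpi-2 libraries in the fit (limma adjusted p = 0.0231).

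**Figure D4:**
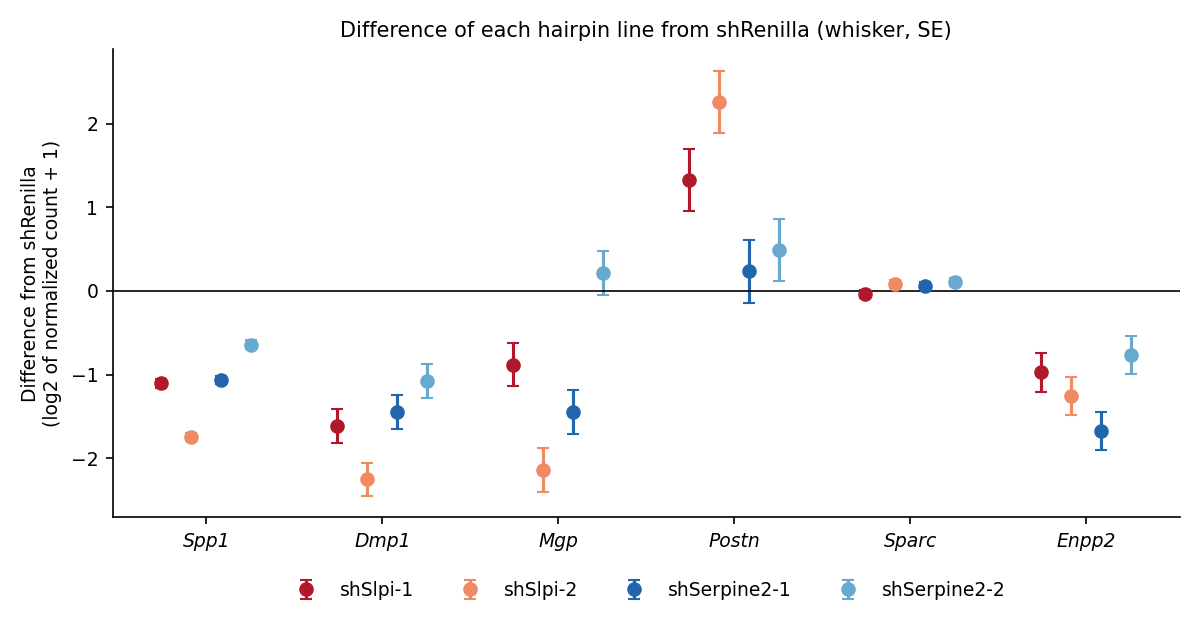
Difference of each hairpin line from shRenilla in log2(normalized count + 1) for the 6 genes (points, fitted difference; whiskers, SE). Dmp1 ranges from -2.25 (shSlpi-2) to -1.08 (shSerpine2-2), Mgp from -2.14 (shSlpi-2) to 0.22 (shSerpine2-2), and all Sparc points lie between -0.03 and 0.11.

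Counted together, 3 of the 6 genes (Spp1, Dmp1 and Enpp2) fell over both Serpine2 hairpins and 0 rose, where 21.5% of 12299 genes were called, 10.8% lower and 10.7% higher. The median difference of the 6 was -0.73, beside -0.00 for all tested genes. These counts share the shRenilla libraries with the Slpi comparison that chose the genes, and all 6 entered the tests, so they are not independent of that choice. In the Slpi comparison 34.8% of all genes were called (7.65% higher and 9.88% lower with shSlpi-1 alone, 20.4% higher and 21.9% lower with shSlpi-2 alone). That comparison chose the genes, so nothing is read from their place in it. With shSerpine2-1 alone 4 fell (5.38% of all genes) and with shSerpine2-2 alone 3 fell (13.4% of all genes, out of 27.5% called).

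Between the Serpine2 hairpins, 3 of the 6 genes (Spp1, Mgp and Enpp2) were called lower with shSerpine2-1 and 0 higher, where 7.69% of all genes were lower and 6.98% higher. Between the Slpi hairpins 13.7% of all genes were called higher with shSlpi-1. The members were chosen on these same Slpi libraries, so no count of them is given there.

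Across the 10 libraries Spp1 and Dmp1 had a Pearson r of 0.99 on the log2 scale, and among 9928 genes with a mean of at least 50 counts Dmp1 was the second most like Spp1 after Man1c1 (r = 0.99), a Golgi mannosidase. The genes most like Dmp1 were Spp1 and Mllt3 (r = 0.99). Mgp was most like Jun (r = 0.97) and the neurotrophin receptor gene Ngfr (r = 0.95), with Ngfr at 91.0 and 63.1 counts in shSlpi-1 and shSlpi-2, 97.9 in shSerpine2-1 and 185 in shSerpine2-2, against 171 in shRenilla. Enpp2 was most like the export pump gene Abcc3 (r = 0.93) and Sema4c (r = 0.92), Postn most like Uap1 (r = 0.96) and B3gnt3 (r = 0.95), and Sparc most like Thop1 (r = 0.96) and Copg1 (r = 0.95). The points are 5 groups of 2 libraries, so these values mostly compare 5 levels and are given as description. Mgp correlated with Spp1 at 0.85, Enpp2 with Spp1 at 0.77 and Postn with Spp1 at -0.80.

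Genes that act on or with the 6 proteins were taken as 9 lists of 106 further genes, of which 59 entered the tests. With Slpi lowered 11 rose (18.6%, beside 16.5% of all genes) and 17 fell (28.8%, beside 18.3%), and the list median was -0.05, beside -0.01 for all genes. With Serpine2 lowered 8 rose (13.6%, beside 10.7%) and 12 fell (20.3%, beside 10.8%), with a median of -0.05, beside -0.00. The Serpine2 count of 20 called genes was 13 without shRenilla library B. The lists were chosen with earlier results of these libraries known. Counts of single lists below, of at most 11 tested genes each, are to be set beside these same shares of all genes. They are not read as results about a list.

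Among 7 tested processing enzymes, 1 rose and 3 fell with Slpi lowered and 0 rose and 3 fell with Serpine2 lowered. Phex, a membrane peptidase that cleaves acidic peptides of SIBLING proteins, had 994 and 863 counts with shSlpi-1, 481 and 579 with shSlpi-2, 1210 and 1156 with shSerpine2-1 and 1090 and 1019 with shSerpine2-2, against 1530 and 1593 with shRenilla. The shRenilla libraries were above all others and the shSlpi-2 libraries below all others. Phex fell by 1.16 with Slpi lowered (SE 0.07, limma adjusted p = 1.39e-08) and by 0.48 with Serpine2 lowered (SE 0.07, limma adjusted p = 0.000304). Mmp3, a matrix metalloproteinase that can cleave osteopontin, averaged 375 ± 25.8 with shSlpi-1, 317 ± 4.61 with shSlpi-2, 377 ± 5.85 with shSerpine2-1 and 766 ± 27.1 with shSerpine2-2, against 816 ± 40.3 with shRenilla (SD, n = 2). Like Mgp, it fell with shSerpine2-1 and differed between the Serpine2 hairpins (-1.02, SE 0.08, limma adjusted p = 8.27e-07). Fam20c, the kinase of SIBLING proteins, averaged at most 3.34 counts in any group.

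Among 6 tested genes of phosphate and pyrophosphate handling, 1 rose and 3 fell with Slpi lowered and 1 rose and 2 fell with Serpine2 lowered. Ank, which exports ATP and thereby feeds pyrophosphate, an inhibitor of mineral growth, averaged 6922 ± 255 with shSlpi-1, 6265 ± 237 with shSlpi-2, 7564 ± 21.4 with shSerpine2-1 and 8986 ± 245 with shSerpine2-2, against 10245 ± 105 with shRenilla (SD, n = 2). It fell by 0.64 with Slpi lowered (SE 0.04, limma adjusted p = 1.47e-08) and by 0.31 with Serpine2 lowered (SE 0.04, limma adjusted p = 9.73e-05). Nt5e, the ectonucleotidase that makes adenosine from AMP, fell by 0.43 and 0.30 in the same order, and the phosphate importer gene Slc20a1 rose by 0.37 and 0.36. The pyrophosphate-making Enpp1 (0.23 and -0.22) and the phosphatase Alpl (-0.32 and 0.29) did not pass over both hairpins of either target. In single lines Alpl fell with shSlpi-2 (-0.66, limma adjusted p = 0.00107) and rose with shSerpine2-2 (0.53, limma adjusted p = 0.00916). Enpp1 rose with shSlpi-2 (0.38, limma adjusted p = 0.0131) and fell with shSerpine2-2 (-0.42, limma adjusted p = 0.0123).

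Among 11 tested osteoblast regulators, 1 rose and 5 fell with Slpi lowered and 1 rose and 2 fell with Serpine2 lowered. Runx2, the transcription factor that drives osteoblast formation and can act on Spp1, had 2787 and 2716 counts with shSlpi-1, 2404 and 2873 with shSlpi-2, 3061 and 3082 with shSerpine2-1 and 3050 and 3039 with shSerpine2-2, against 3340 and 3421 with shRenilla. It fell by 0.33 with Slpi lowered (SE 0.06, limma adjusted p = 0.000268) and stood at -0.14 with Serpine2 lowered (limma adjusted p = 0.0779). Bmp7, a bone morphogenetic protein, fell by 0.80 and 0.50 in the same order, while Tgfb2, a transforming growth factor, rose by 0.58 and 0.29, of which the Serpine2 value lost its call without any 1 of 4 libraries (limma adjusted p = 0.184 and 0.0827 without shRenilla A and B, 0.0758 without shSerpine2-1 A, 0.0600 without shSerpine2-2 B).

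Among 9 tested receptor genes, 3 rose and 3 fell with Slpi lowered and 1 rose and 2 fell with Serpine2 lowered. A mean of both hairpins can hide opposite changes. Itgb3 averaged 186 ± 4.19 with shSerpine2-1 and 433 ± 1.93 with shSerpine2-2, against 284 ± 3.96 with shRenilla (SD, n = 2). It averaged 198 ± 24.7 with shSlpi-1 and 242 ± 0.133 with shSlpi-2. The integrin chain Itga8, part of an osteopontin receptor, fell by 0.82 with Slpi lowered (SE 0.10, limma adjusted p = 8.52e-06). With Serpine2 lowered it fell by 0.70 (SE 0.10, limma adjusted p = 0.000131). Itgb6, an epithelial chain that pairs with the alpha v chain, rose by 1.14 and 0.44. Itgav itself stood at -0.01 and -0.05 and did not pass, while Cd44 stood at -0.14 with Slpi lowered (limma adjusted p = 0.00943), a call lost without shRenilla library B (-0.12). With Serpine2 lowered Cd44 stood at -0.11 (limma adjusted p = 0.0473), a call lost when any library but those of shSlpi-2 was left out (limma adjusted p = 0.0718 to 0.284).

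Among 6 tested matricellular and related genes, 4 rose and 0 fell with Slpi lowered and 3 rose and 0 fell with Serpine2 lowered. Ctgf (0.75 and 0.40), Cyr61 (0.65 and 0.37) and Thbs1, a thrombospondin (0.42 and 0.52), rose in both. Tnc stood at -0.01 over both Slpi hairpins because the lines differed. It fell with shSlpi-1 (-0.26, limma adjusted p = 0.0113) and rose with shSlpi-2 (0.24, limma adjusted p = 0.00808). Among 11 collagen, crosslinking and proteoglycan genes 1 rose and 3 fell with Slpi lowered and 2 rose and 3 fell with Serpine2 lowered, with the lysyl oxidase relative Loxl3 at -0.69 and -0.38 and the lysyl hydroxylase Plod1 at -0.50 and -0.26, of which the Plod1 value with Serpine2 lowered lost its call without either shRenilla library (limma adjusted p = 0.0817 and 0.112 without A and B). Serpinh1, a collagen chaperone, rose by 0.39 and 0.25, but with shSlpi-1 alone against shRenilla, the shSlpi-2 libraries left out, it was not called (0.07, limma adjusted p = 0.381), and its Serpine2 value lost the call without shRenilla library B (0.23, limma adjusted p = 0.129).

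None of 4 tested Gla protein and vitamin K cycle genes passed over both hairpins of either target; the carboxylase gene Ggcx, which activates Mgp, stood at -0.20 (Slpi, SE 0.10) and -0.21 (Serpine2, SE 0.10). At an unadjusted p under 0.05, 1 of the 4 was lower with Slpi lowered (Vkorc1) and 1 with Serpine2 lowered (Ggcx), both by limma. With shSlpi-1 alone Vkorc1, which recycles vitamin K (-0.37, limma adjusted p = 0.0421), and Pros1, the protein S gene (-0.37, limma adjusted p = 0.0316), fell. None of 5 tested genes of lysophosphatidic acid signalling other than Enpp2 passed over both hairpins of either target, with 0 at an unadjusted p under 0.05 by limma, and differences ran from -0.09 to 0.03 for Slpi and from -0.13 to 0.06 for Serpine2. In single lines the receptor gene Lpar6 fell with shSlpi-2 (-0.27, limma adjusted p = 0.024), and shSlpi-1 stood 0.36 above shSlpi-2 (limma adjusted p = 0.00795).

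**Figure D5:**
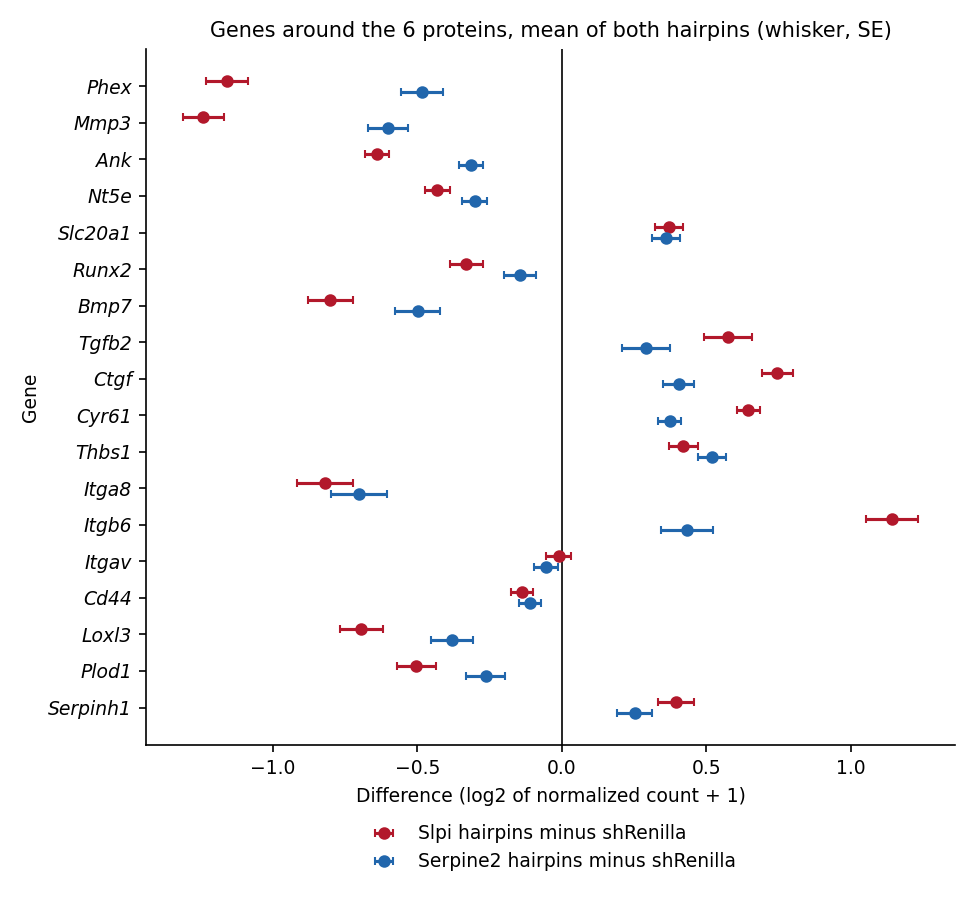
Differences from shRenilla in log2(normalized count + 1), as the mean of both hairpins, for 18 named genes of the lists (whiskers, SE). Phex (-1.16 for Slpi, -0.48 for Serpine2) and Mmp3 (-1.24 and -0.60) lie lowest and Itgb6 (1.14 and 0.44) highest among the Slpi values, while Itgav lies at -0.01 and -0.05.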

How the data were processed

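Total RNA of 10 libraries was measured by RNA sequencing. The NuGEN Ovation V2 kit made the cDNA, per the labels' protocols. The authors used Bowtie2, HTSeq, DESeq and build mm10, per the submitters' processing notes. Versions, annotation and strand setting: not given in the sources used here. The authors deposited log2 values for 23479 entries, with a floor of 6.733366499 in every column. These values have the form of a variance-stabilizing transformation, which was inverted here to normalized counts. After division by each library's step, 100% of the values above 0 and under 1000 reads were whole reads within 0.01. No label states the transformation.

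Tests used limma 3.58.1 in R 4.3.3 on log2(normalized count + 1), with a mean-variance trend, 1 mean per group fitted to all 10 libraries, and a minimum mean of 10 normalized counts (12299 genes). The planned test was kept and the inversion came first. A fold on this scale understates changes of low genes. P-values are two-sided with Benjamini-Hochberg adjustment over those genes. An adjusted p under 0.05 is a call, written as rose or fell. The script was tested on simulated data. Libraries of a group were not copies of each other. A count of 0 allows up to 3 reads, 2.30 to 3.48 normalized counts, for counting error only.

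Named genes were the 6 members, up to 3 called genes of a list per contrast with the smallest p, listed genes with a direct role, and the 2 genes most like each member. Neighbours of Spp1 were added by position after the data were seen. Members and lists were chosen with earlier results of these data known. Positions and lengths are those of GENCODE M21 on GRCm38. Alternatives changed the pseudocount, filter, scaling, transformation, libraries in the fit and replicate block, and left out each library.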

Additional observations from a re-analysis of the deposited data

Results flagged for a closer look

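Differences between shSerpine2-1 and shSerpine2-2 passed limma's test for Spp1 (-0.43), Mgp (-1.66) and Enpp2 (-0.91). That test compares the lines with each other and not with shRenilla. Between shSlpi-1 and shSlpi-2 the differences of Spp1 (0.64), Dmp1 (0.64) and Mgp (1.26) were flagged by the same threshold. That threshold was applied to libraries that chose the genes, so passing it is not read as a test result. The values are given as description. Postn, at -0.94 between these lines, did not reach the threshold. Serpine2 averaged 134 counts with shSerpine2-1 and 501 with shSerpine2-2, and Slpi 370 and 1164 in those lines and 146 and 68.3 with shSlpi-1 and shSlpi-2, where Serpine2 averaged 1336 and 1642, against 1251 (Slpi) and 3201 (Serpine2) with shRenilla. The 6 genes were chosen on the Slpi libraries. Rn45s took 1.89% to 1.96% of reads in shSlpi-1 and 6.88% to 6.91% in shSlpi-2, and the part of that gap in the Slpi pair was not tested. Groups of 2 libraries are too small for a check of single libraries against the rest of their group.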

How the results depend on the processing

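Of 940 differences of the 6 genes recomputed under an alternative, 931 kept their sign, and 627 of 627 whose size was over 0.5 did. Many of these could not change, because each group has its own fitted mean. The filter, the replicate block and leaving out libraries of groups not compared alter only the spread and the p-value. The count therefore says little about how stable the differences are. On the deposited log2 scale, which compresses low genes by its construction, the Slpi differences were Dmp1 -0.70, Mgp -0.55, Postn 0.45 and Enpp2 -0.41. A pseudocount of 5 gave Dmp1 -1.80. With shSlpi-1 alone, both shSlpi-2 libraries left out, they were Spp1 -1.11, Dmp1 -1.61, Mgp -0.88, Postn 1.33 and Sparc -0.035, and 2 other named genes that were called in one of the fits changed sign, Mmp9 (-0.64) and Pkd2 (0.029). Itgav, Alpl, Lpar6, Furin and Nudt9, called in neither, also changed sign. Leaving out 1 library at a time moved the Slpi difference of Spp1 between -1.49 and -1.36.

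Over both Serpine2 hairpins Mgp became a call on the deposited scale (-0.22, limma adjusted p = 0.0341), with only the libraries compared (-0.62, limma adjusted p = 0.00185) and without both shSlpi-2 libraries (-0.62, limma adjusted p = 0.00251), and ran from -0.71 to -0.52 with 1 library left out. Sparc became one with only the libraries compared (0.083, limma adjusted p = 0.0371). Between Serpine2 hairpins the Enpp2 call ended with no filter (-0.91, limma adjusted p = 0.062), and the value ran from -1.23 to -0.58 with 1 library left out. Between Slpi hairpins, given as description, Dmp1 was 0.17 on the deposited scale and 0.64 with only those libraries. Postn was -0.29 on the deposited scale. With 1 library left out, Dmp1 ran from 0.52 to 0.76, Postn from -1.34 to -0.54 and Sparc from -0.16 to -0.081. The cause of these changes was not tested.

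Genes called for Slpi numbered 4281 and 2401 to 5135 with 1 library left out, lowest without shRenilla A (2732) or B (2401). For Serpine2 they numbered 2643, 1632 with no filter, 4176 with only the libraries compared, and 766 (without shRenilla B) to 3922 with 1 left out. Between Serpine2 hairpins they numbered 1805, 1133 with no filter, 3599 with only those libraries, 3185 without both shSlpi-2 libraries, and 404 (without shSerpine2-2 B) to 3181 with 1 left out. Between Slpi hairpins they numbered 3204, 1252 with only those libraries, and 1539 (without shSlpi-1 B) to 3942 with 1 left out. Where a group keeps 1 library, it is assumed to vary like the others.

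The letters A and B did not pair the libraries: same-letter deviations correlated between -0.07 and 0.07 over the 10 pairs of groups, 0 of them over 0.1. With a replicate block Mgp over both Serpine2 hairpins was called (-0.62, limma adjusted p = 0.0373), and Cd44 was not (-0.11, limma adjusted p = 0.0565). Genes called with the block numbered 2594 for Serpine2 and 4256 for Slpi. Postn rests on 9 to 75 reads per library, so counting error limits it most.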
